A study of Mus musculus with 6 samples.

Results

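The corticotropin-releasing hormone (CRH) system and the corticosteroid receptors with their close effectors were described through 10 genes, taken from a table of 45777 genes by their symbols: Crh, Crhbp, Crhr1, Crhr2, Nr3c1, Nr3c2, Fkbp5, Fkbp4, Hsd11b1 and Sgk1. All 10 were in the table and all 10 passed the filter on low counts, which left 19227 genes for testing. Gene expression was measured by RNA sequencing in tissue of the anterior cingulate cortex, part of the medial frontal cortex, from BALB/c mice, an inbred strain. There were 3 stress libraries, from mice put through social defeat for 5 days, a procedure in which an aggressor repeatedly subordinates another mouse, and 3 non-stress libraries. Age, sex and the delay between the last defeat and dissection are not in the labels. Nor do these tell if the libraries are of different animals, and the p-values therefore describe the spread among these 6 samples, part of which may be technical.

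CRH is the peptide with which the hypothalamus starts the endocrine stress response, and in the cortex it is also made by local GABAergic interneurons. It acts through G protein-coupled receptors that raise cyclic AMP, and a binding protein holds it away from them. Corticosterone, the glucocorticoid that the adrenal gland of a mouse releases at the end of that response, enters the brain and binds the mineralocorticoid receptor at low levels and the glucocorticoid receptor at high ones. Both are nuclear receptors kept ready for ligand by HSP90 and its co-chaperones, and once bound they turn on target genes, among them the feedback inhibitor Fkbp5 and the kinase gene Sgk1.

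None of the 10 genes passed the test between stress and non-stress (edgeR's quasi-likelihood test, Benjamini-Hochberg adjusted p under 0.05 over all genes). Among all genes, 1 of 19227 passed, or 0.0052%. At an unadjusted p under 0.05 there were 2 members, Crh and Crhbp, both higher in stress, where 5.8% of all genes were higher at that level and 12.1% passed it in either direction. For these 2 members alone the stress and non-stress libraries did not overlap in CPM (counts scaled to the library total). Of all genes, 17.9% did not overlap, 8.7% with stress higher and 9.2% with stress lower. DESeq2's Wald test, which called 1.05% of the genes it gave an adjusted p, and limma-voom also called 0 members. Each had 2 members at an unadjusted p under 0.05, where of all 19227 genes DESeq2 had 1955 and limma-voom 2416. With all libraries, the smallest adjusted p of any member was that of Crh, 0.351 in edgeR, 0.207 in DESeq2 and 0.311 in limma-voom.

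The total counts were 41623899 to 44882821 in the stress libraries and 41976809 to 47212982 in the non-stress libraries. Non-stress 1 lay near the stress libraries on the leading principal component, at -11.7 against -20.4 to -14.9 in stress and 27.4 and 37.4 in the other non-stress libraries. Without non-stress 1 the test called 756 genes, or 3.85% of those tested (2.94% higher in stress), and still 0 of the 10 members. Cortical markers were present as the tissue label states: the 10 excitatory neuron markers summed to 1682 to 1726 CPM in stress and 1652 to 1812 CPM in non-stress. Markers of other tissue were present too. Those of striatum summed to 197 to 212 CPM in stress and 197 to 219 CPM in non-stress. Those of meninges and choroid plexus summed to 259 to 267 CPM in stress and 276 to 287 CPM in non-stress, without overlap. Their part in the members' values was not tested.

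**Figure D1:**
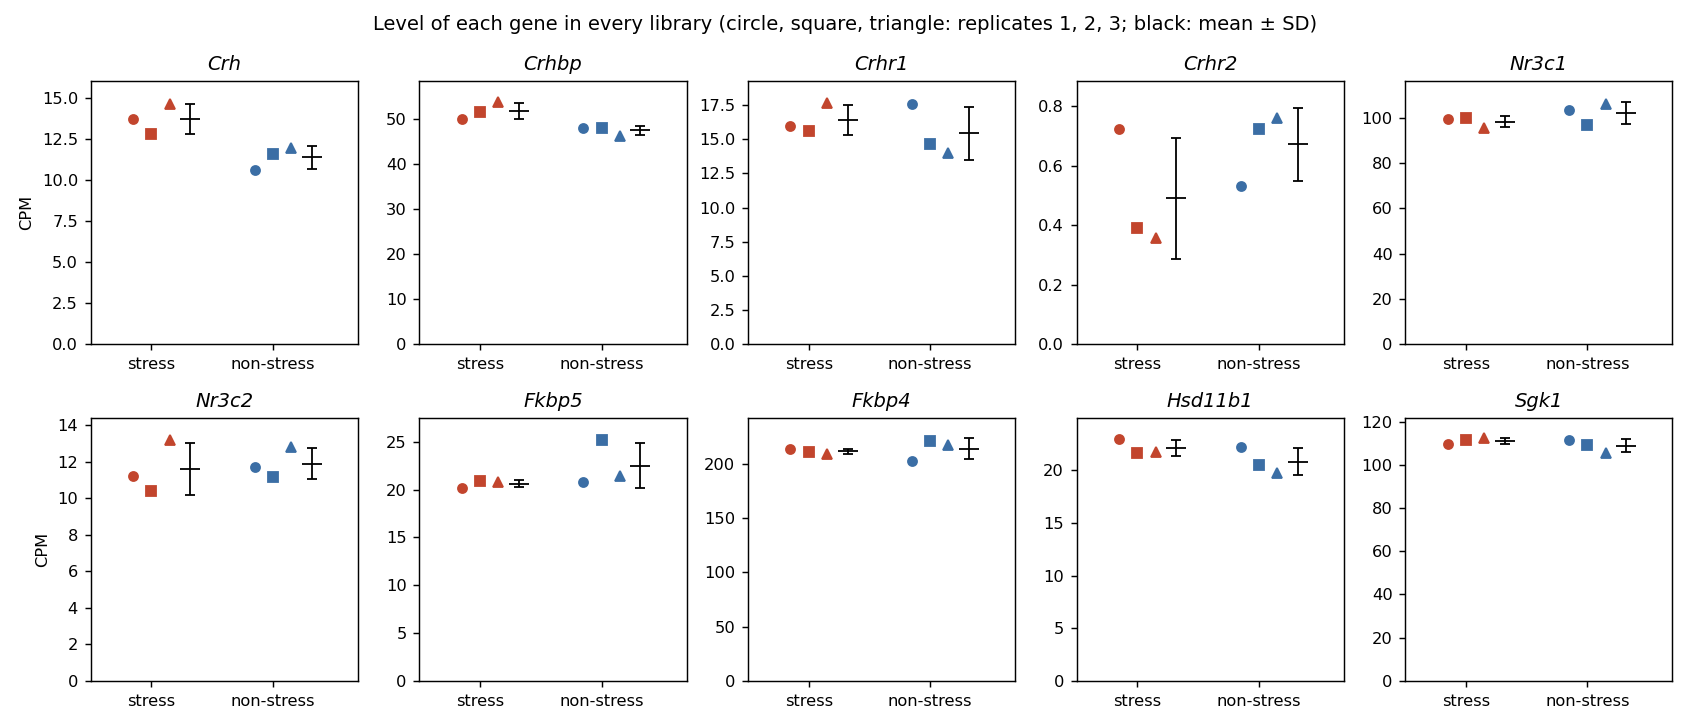
Level of each of the 10 genes in CPM, with the 3 stress libraries left of the 3 non-stress libraries, a marker shape for each replicate number, and the mean ± SD in black. Only Crh and Crhbp show 3 stress libraries that all lie above the 3 non-stress libraries.

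The members spanned a wide range of levels. On the scale of CPM per kilobase of exon, averaged over the 6 libraries, Fkbp4 stood highest at 95.9, followed by Crhbp at 27.6, Sgk1 at 27.1, Nr3c1 at 15.3, Hsd11b1 at 11.4, Crh at 9.52, Crhr1 at 6.47, Fkbp5 at 3.30, Nr3c2 at 1.90 and Crhr2 at 0.191. The libraries of Crhbp and Sgk1 overlapped on this scale, and so did those of Hsd11b1 and Crh. Between the other neighbours in the order, all libraries of the higher gene lay above all libraries of the lower. Lengths were those of all exons in GENCODE's basic annotation together. With the longest transcript instead, Sgk1 moved above Crhbp (35.5 against 27.9) and the rest of the order of means held. Fkbp5 rose to 5.59 on that scale, near Crhr1 at 6.47, and the overlap of single libraries was not examined there.

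Crh encodes the CRH peptide and lies on chromosome 3 (19693401 to 19695396, GRCm38, here and below as NCBI's gene table gives positions). It had 13.8, 12.8 and 14.6 CPM in stress 1, 2 and 3, against 10.6, 11.6 and 11.96 CPM in non-stress 1, 2 and 3. Each stress library lay above each non-stress library. The means were 13.7 ± 0.929 CPM in stress and 11.4 ± 0.688 CPM in non-stress (SD, n = 3 each), a difference with a log2 fold change of 0.27 (SE 0.09, 95% interval 0.08 to 0.46, unadjusted p = 0.0112, edgeR adjusted p = 0.351). The log2 fold change stayed between 0.22 and 0.32 when any 1 library was left out, with an unadjusted p (edgeR) of 0.0118 to 0.0516, the highest without stress 3.

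In a bulk sample, fewer cells of a type and less RNA per cell cannot be told apart, so Crh was read beside markers of GABAergic interneurons. The 14 interneuron markers summed to 1902 to 1970 CPM in stress and 1729 to 1888 CPM in non-stress and also did not overlap. The most abundant genes weigh most in such a sum. The 14, which include Cck and Reln, were not checked for expression outside interneurons. Of the 14, 4 were higher and 2 lower at an unadjusted p under 0.05, and 0 passed after adjustment in edgeR, while DESeq2 called 2 of them, Sst and Npy, higher. Leaving out non-stress 1 gave 8 higher and 2 lower, and there were 3 higher and 0 lower without non-stress 2, stress 1 or stress 3. The number of all genes at an unadjusted p under 0.05, in either direction, moved too. It was 3816 of 19616 without non-stress 1 and 1597 of 19626 without non-stress 2. It was 1282 of 19668 without stress 1 and 1795 of 19601 without stress 3, against 2322 of 19227 with all libraries. The median log2 fold change of the 14 was 0.06, but 0.16 without non-stress 1 and -0.01 without non-stress 2. Among the defining GABAergic genes, the GABA synthesis enzyme gene Gad1 had a log2 fold change of -0.11, its partner Gad2 one of 0.14 and the vesicular GABA transporter gene Slc32a1 one of -0.49. Vip, a peptide gene of cortical interneurons that can also make CRH, had 92.1, 93.5 and 101 CPM in stress against 104, 75.1 and 86.2 CPM in non-stress, and the groups overlapped.

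To measure how much of the difference remained within each library, Crh and Crhbp were set against interneuron genes in 5 ratios, all chosen after values of these genes were seen. Relative to the summed counts of all 14 interneuron markers, Crh amounted to 0.717%, 0.674% and 0.743% in stress 1, 2 and 3, against 0.564%, 0.669% and 0.651% in non-stress 1, 2 and 3. Stress 2 lay just above non-stress 2, and the log2 difference was 0.18, smaller than the 0.27 in CPM. Relative to Gad1, Gad2 and Slc32a1 alone it was 0.31, with 2.99%, 2.84% and 3.13% in stress against 2.33%, 2.42% and 2.49% in non-stress, but Gad1 made up 68.4% to 75.5% of that sum and was itself lower in all stress libraries. The size of the Crh difference therefore varied with the interneuron genes it was set against. Either ratio gave an exact permutation p of 0.1, two-sided, the smallest that 3 against 3 can give, and 0.167 adjusted over the 5 ratios.

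Markers of the hypothalamic paraventricular nucleus, where CRH neurons of the endocrine axis lie, summed to only 1.56 to 2.12 CPM in stress and 0.890 to 2.06 CPM in non-stress over 5 genes, and Sim1, which specifies that nucleus, had 0 counts in every library. Pituitary markers summed to 3.79 to 14.2 CPM in stress and 1.26 to 3.18 CPM in non-stress over 8 genes, without overlap. Fshb had 0 counts in every library. The part of these markers in the members' values was not tested.

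Crhbp encodes the CRH-binding protein, a secreted protein that sequesters CRH, and lies on chromosome 13 (95431376 to 95444831). It had 50.1, 51.6 and 53.8 CPM in stress 1, 2 and 3, against 48.1, 48.1 and 46.3 CPM in non-stress 1, 2 and 3. The groups did not overlap, with a gap of about 2 CPM between the lowest stress library and the highest non-stress library. Means were 51.8 ± 1.84 CPM in stress and 47.5 ± 1.04 CPM in non-stress (SD, n = 3 each), a 1.09-fold difference (log2 fold change 0.13, SE 0.05, 95% interval 0.01 to 0.24, unadjusted p = 0.0319, edgeR adjusted p = 0.387). With a library left out, the log2 fold change was 0.10 to 0.15 and the unadjusted p (edgeR) 0.0240 to 0.128, above 0.05 without stress 2, stress 3 or non-stress 3.

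Crhbp is made in large part by somatostatin interneurons, and Sst, the somatostatin gene, had 287, 296 and 285 CPM in stress against 218, 233 and 269 CPM in non-stress. Relative to all 14 interneuron markers, Crhbp amounted to 2.61%, 2.72% and 2.73% in stress against 2.55%, 2.77% and 2.52% in non-stress. The groups overlapped on this scale, with non-stress 2 the highest, and the log2 difference was 0.04 (exact permutation p = 0.4). The ratio of Crhbp to Sst was 17.4%, 17.5% and 18.8% in stress and 22.1%, 20.7% and 17.2% in non-stress, a log2 difference of -0.15 (exact permutation p = 0.4). Relative to Gad1, Gad2 and Slc32a1, it was 10.9%, 11.5% and 11.5% in stress against 10.5%, 10.02% and 9.64% in non-stress, a log2 difference of 0.17 (exact permutation p = 0.1). The sign of the Crhbp difference thus depended on the interneuron genes it was set against.

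The promoter of Crhbp is shown because cyclic AMP, the second messenger of CRH receptors, acts on genes through the cyclic AMP response element (CRE, TGACGTCA, searched on both strands). Windows from 250 bases before to 50 bases after a transcript start were taken from RefSeq (GRCm38.p6), which gave 13 windows for 8 of the 10 members. Crh and Nr3c1 had no entry. The full CRE was in none of the 13 windows and in 1.79% of the 32851 windows of all genes. Its 5-base core, TGACG or CGTCA, was in 20.8% of all windows and in 3 of the 13 member windows, a share near that of all windows. The core began 64 bases before the start in Crhbp, 38 in Fkbp4 and 236 in 1 window of Sgk1. Capitals mark that core (chr13:95444782-95445081, minus strand).
Crhbp promoter: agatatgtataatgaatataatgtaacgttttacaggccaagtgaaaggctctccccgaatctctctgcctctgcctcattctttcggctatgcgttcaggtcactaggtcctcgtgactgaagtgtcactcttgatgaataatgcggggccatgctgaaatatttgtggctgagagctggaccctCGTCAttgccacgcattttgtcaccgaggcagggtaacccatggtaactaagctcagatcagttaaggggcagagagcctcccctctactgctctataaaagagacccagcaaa

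Crhr1 encodes the main CRH receptor of the cortex, coupled to cyclic AMP, on chromosome 11 (104130463 to 104175523). It had 16.0, 15.6 and 17.6 CPM in stress 1, 2 and 3, against 17.6, 14.7 and 14.004 CPM in non-stress 1, 2 and 3. The groups overlapped, since non-stress 1 was about as high as the highest stress library. Its log2 fold change was 0.09 (SE 0.10, 95% interval -0.13 to 0.31, edgeR adjusted p = 0.740). It was 0.19 without non-stress 1 (unadjusted p = 0.0429, edgeR adjusted p = 0.239) and 0.02 without non-stress 3.

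Crhr2, the receptor that prefers the urocortins, lies on chromosome 6 (55090048 to 55133016) and was the member of lowest level. It had 30, 17 and 16 counts in stress 1, 2 and 3, against 23, 34 and 32 counts in non-stress 1, 2 and 3. Stress 1 lay among the non-stress libraries, and the other stress libraries lay below them. The log2 fold change was -0.46, with an SE of 0.34 and a 95% interval of -1.22 to 0.30 (edgeR adjusted p = 0.602), so a difference of that size could not be told from none at this depth. Without stress 1 the log2 fold change was -0.84 (unadjusted p = 0.0373, edgeR adjusted p = 0.732), and without stress 3 it was -0.28. Crhr1 had 22.1, 40.1 and 49.4 counts for each Crhr2 count in stress, against 33.0, 20.3 and 18.4 in non-stress, which overlapped (log2 difference 0.61, exact permutation p = 0.2).

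The other peptides of the CRH family were near absent. Ucn, the urocortin gene, had 5, 0 and 8 counts in stress and 3, 5 and 4 counts in non-stress, and Ucn2 and Ucn3 had at most 2 counts in any library. A count of 0 allows up to 3 counts, or 0.0635 to 0.0721 CPM in these libraries, counting error only. The ratio of Crh to Crhbp counts was 27.4%, 24.8% and 27.2% in stress and 22.1%, 24.1% and 25.8% in non-stress. Stress 2 lay below non-stress 3, so the groups overlapped (log2 difference 0.14, exact permutation p = 0.2, adjusted over 4 ratios between members 0.4).

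**Figure D2:**
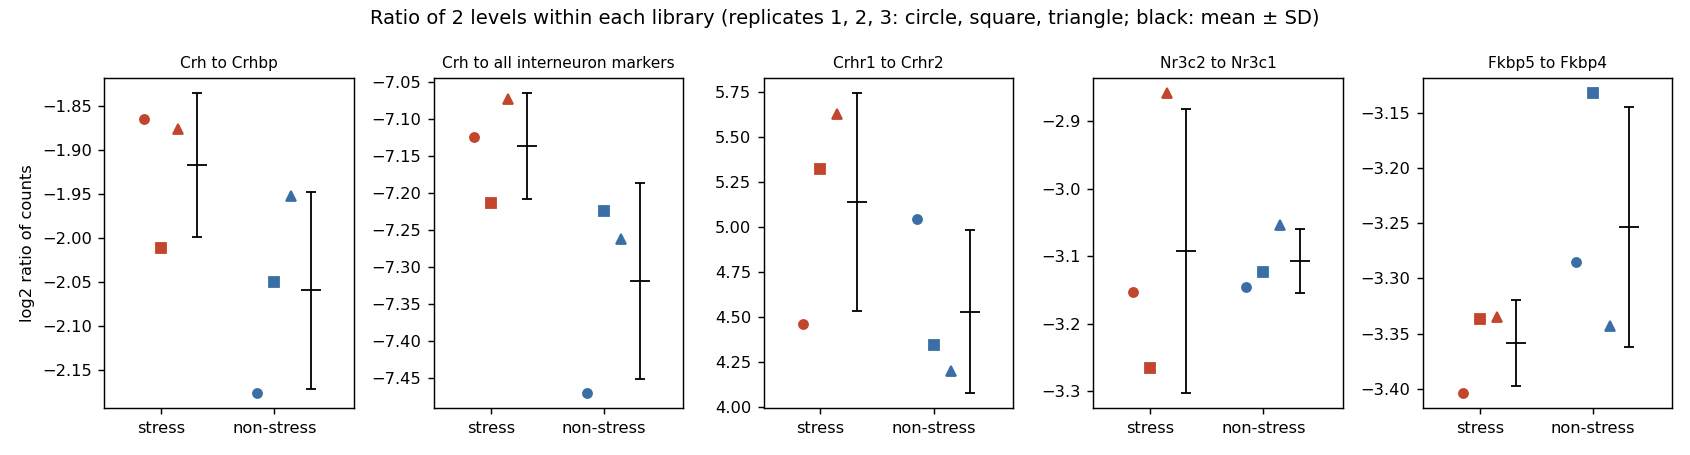
Log2 ratio of the counts of 2 genes (or of Crh to the sum of the 14 interneuron markers) in each library, stress left of non-stress, with mean ± SD in black. Of the 5 ratios plotted, only that of Crh to the interneuron markers has groups that do not overlap, by a narrow margin between stress 2 (0.674%) and non-stress 2 (0.669%).

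Nr3c1 encodes the glucocorticoid receptor, on chromosome 18 (39410545 to 39519421). It had 99.6, 99.8 and 95.6 CPM in stress 1, 2 and 3, against 104, 97.0 and 106 CPM in non-stress 1, 2 and 3. Non-stress 2 lay within the stress range. Nr3c1 had a log2 fold change of -0.06 (SE 0.05, edgeR adjusted p = 0.661), and its 95% interval of -0.17 to 0.05 was among the narrowest of the members.

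Nr3c2, the mineralocorticoid receptor gene on chromosome 8 (76898083 to 77245012), had 11.2, 10.4 and 13.2 CPM in stress, against 11.7, 11.1 and 12.8 CPM in non-stress. The groups overlapped in full, with both the highest and the lowest value in stress. The log2 fold change was -0.04 (SE 0.10, 95% interval -0.27 to 0.20, edgeR adjusted p = 0.915), and its sign turned without stress 2 (0.04) or non-stress 3 (0.02). Nr3c2 had 11.2%, 10.4% and 13.8% of the counts of Nr3c1 in stress and 11.3%, 11.5% and 12.04% in non-stress, a log2 difference of 0.02 (exact permutation p = 1). Stress 3 had the highest mineralocorticoid to glucocorticoid receptor ratio of the 6 libraries and stress 2 the lowest.

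Hsd11b1 encodes the enzyme that regenerates active glucocorticoid inside cells (chromosome 1, 193221640 to 193264045). It had 23.0, 21.6 and 21.7 CPM in stress, against 22.2, 20.5 and 19.8 CPM in non-stress. Non-stress 1 lay within the stress range, and the other non-stress libraries lay below it. Hsd11b1 had a log2 fold change of 0.09 (SE 0.07, 95% interval -0.07 to 0.24, edgeR adjusted p = 0.632). Hsd11b2, the enzyme that inactivates glucocorticoid in the kidney, had 0, 0 and 2 counts in stress and 0 in each non-stress library.

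Fkbp5 encodes a co-chaperone that lowers the receptor's affinity for hormone and is itself induced by glucocorticoids, and Fkbp4 encodes a related co-chaperone that replaces it when the receptor binds ligand. Fkbp5 (chromosome 17, 28398753 to 28486149) had 20.2, 20.9 and 20.7 CPM in stress, against 20.8, 25.2 and 21.4 CPM in non-stress. The groups overlapped narrowly, and non-stress 2 was the highest. For Fkbp5 the log2 fold change was -0.13 (SE 0.08, 95% interval -0.31 to 0.06, edgeR adjusted p = 0.543). It was -0.03 without non-stress 2 and -0.18 without non-stress 1.

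Fkbp4 (chromosome 6, 128430103 to 128438656) had 214, 211 and 209 CPM in stress, against 203, 221 and 218 CPM in non-stress. The stress libraries all lay between non-stress 1 and the other non-stress libraries, with a log2 fold change of -0.02 (SE 0.04, 95% interval -0.11 to 0.08, edgeR adjusted p = 0.898). Fkbp5 had 9.45%, 9.90% and 9.91% of the counts of Fkbp4 in stress and 10.3%, 11.4% and 9.85% in non-stress. Non-stress 3 lay inside the stress range. The log2 difference of -0.11 gave an exact permutation p of 0.3, adjusted over the 4 ratios between members 0.4.

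Sgk1 encodes serum- and glucocorticoid-regulated kinase 1, a direct target of both corticosteroid receptors (chromosome 10, 21882184 to 21999903). It had 109, 111 and 112 CPM in stress, against 111, 109 and 105 CPM in non-stress. The groups overlapped, with non-stress 3 the lowest. The log2 fold change was 0.03 (SE 0.04, edgeR adjusted p = 0.805). Its 95% interval of -0.07 to 0.12 was the narrowest of the 10 members.

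The promoters of Sgk1 and Fkbp5, the members best known as glucocorticoid targets, are shown for the glucocorticoid response element (GRE), searched as AGAACA and TGTTCT with any 3 bases between them, which reads the same on both strands. Over all genes, 3 of 32851 windows held it (0.00913%), and 1 of these was among the 6 windows of Sgk1, where it began 189 bases before the start (chromosome 10, 21993701 to 21993715). A single arm, AGAACA or TGTTCT, was in 19.0% of all windows. The GRE overlaps 2 of the 3 arms in the Sgk1 window. No window of the other 7 members with an entry held the full GRE, and the Fkbp5 window held no arm, which says only that these letters are not in this window. Capitals mark the GRE and the arms (chr10:21993640-21993939, plus strand, and chr17:28486100-28486399, minus strand).
Sgk1 promoter: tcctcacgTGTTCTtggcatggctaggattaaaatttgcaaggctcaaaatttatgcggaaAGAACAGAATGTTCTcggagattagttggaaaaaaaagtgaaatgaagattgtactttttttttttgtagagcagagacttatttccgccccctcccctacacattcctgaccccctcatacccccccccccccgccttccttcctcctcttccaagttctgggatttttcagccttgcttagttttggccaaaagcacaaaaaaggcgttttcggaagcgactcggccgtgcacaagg
Fkbp5 promoter: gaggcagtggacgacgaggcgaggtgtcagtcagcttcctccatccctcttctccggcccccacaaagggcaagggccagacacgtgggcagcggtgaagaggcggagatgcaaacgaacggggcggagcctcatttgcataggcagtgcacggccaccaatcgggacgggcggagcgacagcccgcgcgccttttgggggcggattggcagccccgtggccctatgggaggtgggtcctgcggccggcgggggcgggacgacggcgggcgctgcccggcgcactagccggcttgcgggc

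**Figure D3:**
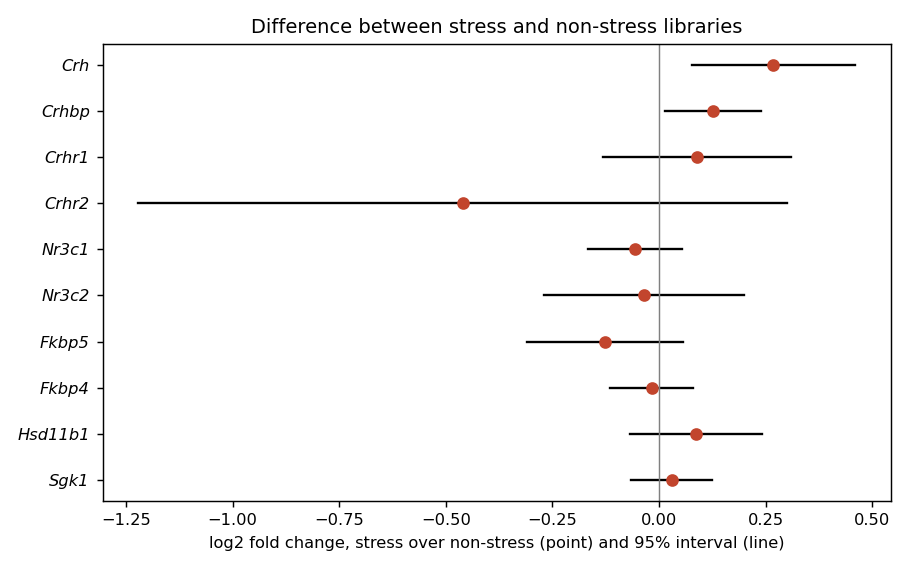
Log2 fold change of each gene, stress over non-stress (points), with its 95% interval (lines), from edgeR's quasi-likelihood fit to all genes. The intervals of Crh (0.08 to 0.46) and Crhbp (0.01 to 0.24) lie above 0 before adjustment over all genes, and the other 8 include 0.

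**Figure D4:**
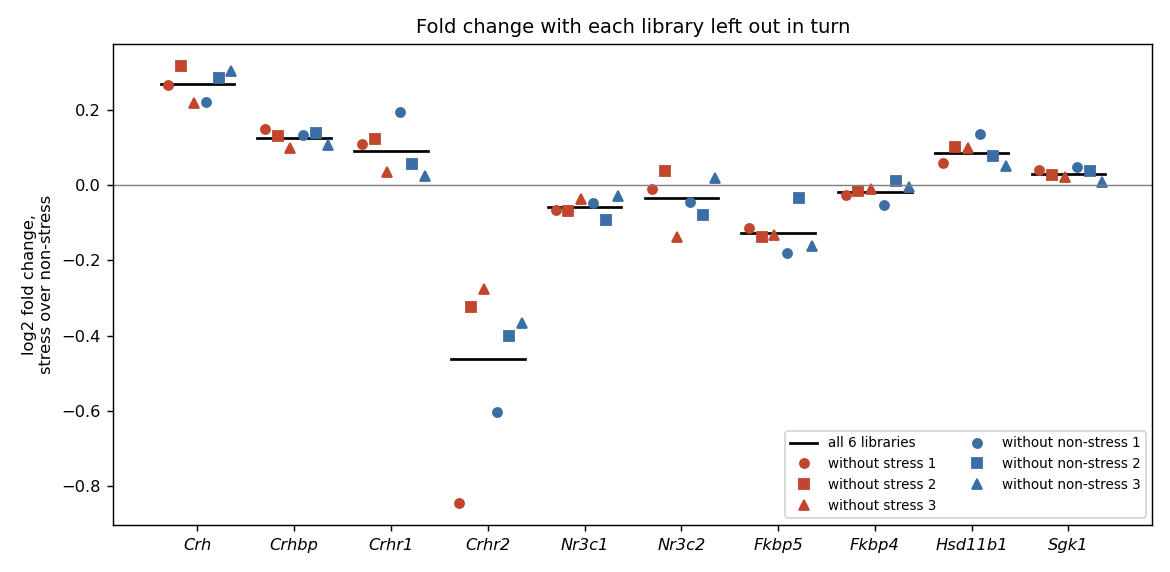
Log2 fold change of each gene with all 6 libraries (black line) and with each library left out in turn (red for a stress library, blue for a non-stress library). Crh, Crhbp, Crhr1, Hsd11b1 and Sgk1 stay above 0 in all 6 fits, and Crhr2, Nr3c1 and Fkbp5 stay below 0. Nr3c2 and Fkbp4 lie on either side of 0.

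Other genes of the pathway were read from 7 lists. In none of them did a gene pass edgeR's test after adjustment over all genes. The 2 tested genes of smallest p in each list are named below, a pick that favours separated groups and calls by another tool. Over all 19227 genes tested, the median log2 fold change was 0.00, with 1116 genes (5.8%) higher and 1206 (6.27%) lower at an unadjusted p under 0.05, so the counts below are given at that level. Leaving out a library changed the number of all genes at that level. It was 3816 of 19616, 1597 of 19626 and 2234 of 19671 without non-stress 1, 2 and 3. It was 1282 of 19668, 1316 of 19625 and 1795 of 19601 without stress 1, 2 and 3. Changes in the list counts below stand beside these table-wide changes.

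Of the 30 glucocorticoid-induced genes, a list of genes that glucocorticoids raise in brain or other tissues, 9 had a log2 fold change above 0 and 21 below 0, with a median of -0.10. At an unadjusted p under 0.05, 3 were higher and 7 lower. Cdkn1a, a cell cycle inhibitor, had 27.6, 30.6 and 32.1 CPM in stress against 24.9, 21.3 and 21.2 CPM in non-stress (log2 fold change 0.42, edgeR adjusted p = 0.309). Dusp1, a phosphatase that switches off MAP kinases, had 67.1, 65.1 and 61.6 CPM in stress against 75.5, 78.2 and 73.9 CPM in non-stress (log2 fold change -0.23, edgeR adjusted p = 0.344). Neither pair of groups overlapped, and the 2 genes lay in opposite directions. Both were named for having the smallest p of the list. DESeq2 called both (adjusted p = 0.00249 for Cdkn1a and 0.0287 for Dusp1). Without non-stress 1, 5 of the 30 lay above 0 and 25 below, and edgeR called Cdkn1a higher and Slc2a1, Tgm2 and Klf15 lower. The median was -0.05 without non-stress 3, and at an unadjusted p under 0.05 only 4 were lower without non-stress 2 or stress 3.

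Of the 17 genes of CRH receptor coupling, 4 lay above 0 and 13 below, with a median of -0.10, and 0 were higher and 6 lower at an unadjusted p under 0.05. Adcy1, an adenylyl cyclase of forebrain neurons stimulated by calcium, averaged 223 ± 4.35 CPM in stress and 252 ± 5.93 CPM in non-stress (SD, n = 3 each; log2 fold change -0.18, edgeR adjusted p = 0.344). Adcy9, another adenylyl cyclase, averaged 37.5 ± 0.323 CPM in stress and 44.5 ± 2.54 CPM in non-stress (log2 fold change -0.25, edgeR adjusted p = 0.344). The groups did not overlap for either gene, but both were named for having the smallest p of the list. DESeq2 called both (adjusted p = 0.0308 for Adcy1 and 0.0492 for Adcy9), and edgeR called Adcy1 without non-stress 1 (adjusted p = 0.0359). The list median was -0.15 without non-stress 3 and -0.05 without non-stress 2. At an unadjusted p under 0.05, 9 were lower without non-stress 3, 4 without non-stress 2 and 3 without stress 1 or stress 2.

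The 16 receptor chaperones and co-chaperones had a median log2 fold change of 0.02, a range of -0.09 to 0.09, and 0 genes at an unadjusted p under 0.05. The median was 0.01 without non-stress 2 or stress 1, and 1 gene was higher and 1 lower at that level without non-stress 1. They included the HSP90 genes Hsp90aa1 (0.04) and Hsp90ab1 (-0.01) and the HSP90 co-chaperone gene Ptges3 (0.02). The genes of smallest p were Dnaja1, an HSP40 co-chaperone (0.09), and Ppp5c, a phosphatase bound to HSP90 (-0.09). Of 10 genes of corticosteroid metabolism and supply, 8 were tested, 2 above 0 and 6 below, with a median of -0.10 and 0 at an unadjusted p under 0.05. The median was -0.06 without non-stress 1 or stress 2, and 1 gene was lower at that level without non-stress 1, stress 1 or stress 3. In that list the smallest p-values belonged to Abcb1a, a drug pump that limits entry of some corticosteroids into the brain (-0.21), and H6pd, which supplies cofactor to the Hsd11b1 enzyme (-0.18). The blood carrier gene Serpina6 had 0 counts in every library.

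The 14 receptor coregulators had a median of -0.07, with 0 higher and 4 lower at an unadjusted p under 0.05. The lower genes were led by the histone methyltransferase Kmt2d (-0.22) and the CREB coactivator Crtc2 (-0.32), which is also counted as lower in CRH receptor coupling. The median was -0.04 without non-stress 3 and -0.05 without non-stress 1, and at that level 1 was lower without stress 1 and 2 without stress 2 or stress 3. Without non-stress 1, edgeR called 1 of them, Smarca2, higher. Of 13 SGK family members and partners, 0 were higher and 1 lower, with a median of -0.02. The sign of that median turned without non-stress 2 (0.00081), non-stress 3 (0.052) or stress 3 (0.0028), and at that level there were 0 higher and 2 lower genes without non-stress 1, 1 higher and 0 lower without non-stress 3, and 0 either way without non-stress 2, stress 1 or stress 3. The lower gene was Wnk4, a kinase of the SGK pathway known from the kidney (-0.51), which edgeR called without non-stress 1. Nedd4l, a ubiquitin ligase that SGK1 phosphorylates, had a log2 fold change of 0.08. Among the 5 tested peptide processing genes, Pam, which amidates CRH and other peptides, had 65.4, 58.9 and 66.1 CPM in stress against 59.7, 44.8 and 46.5 CPM in non-stress (0.33, edgeR adjusted p = 0.345). The groups overlapped through non-stress 1, without which edgeR called Pam and the prohormone convertase gene Pcsk1 higher. With all libraries, DESeq2 called Pam.

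**Figure D5:**
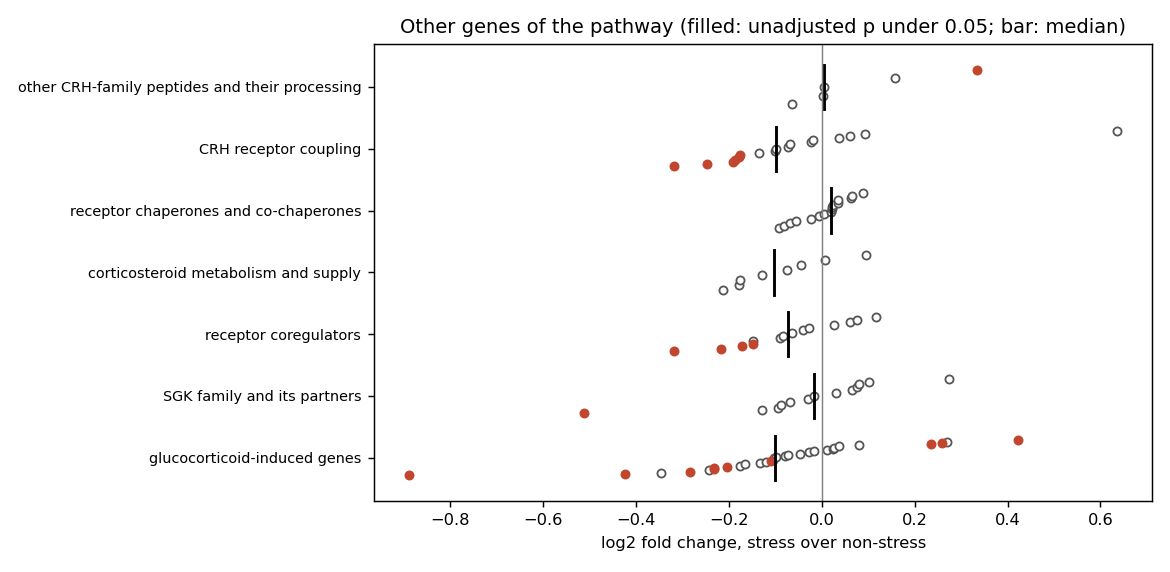
Log2 fold change, stress over non-stress, of the tested genes of each pathway list, filled where the unadjusted p was under 0.05, with the list median as a bar. The chaperones lie within -0.09 to 0.09, and the glucocorticoid-induced genes spread widely to both sides of 0.

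The genes whose pattern over the 6 libraries was most like that of a member were named by the root mean square difference of mean-centred log2 CPM, among 15325 genes with a mean of at least 1 CPM. For Crh they were Nme4 (0.029), Dancr (0.032) and Lcmt2 (0.033), against a median of 0.19 over all genes compared. For Fkbp5 they were Hk1 (0.0085), Rps6ka4 (0.010) and Miga2 (0.011), and for Nr3c1 they were Tm7sf3 (0.013), Crot (0.014) and Afmid (0.018). The medians were 0.141 for Fkbp5 and 0.114 for Nr3c1. The named genes were picked as the smallest differences and so lie below the median by selection. Whether they are more alike than such a pick would give was not tested.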

How the data were processed

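The data are 3 stress and 3 non-stress RNA libraries of mouse anterior cingulate cortex. Per the labels' protocols, SMARTer Ultra Low and TruSeq kits turned total RNA into libraries. Per the submitters' processing notes, Trimmomatic 0.38, HISAT2 and StringTie were used with build GRCm38 (mm10). The counting step, annotation release, strand use and treatment of reads that map to several places were not stated in any source used here. The authors deposited whole-number counts per gene, which were used unchanged. Counts from an antisense gene, such as Gm10649 over Nr3c2 with 4 to 5 counts a library, cannot be separated.

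edgeR 4.0.16 (R 4.3.3) was run on the 19227 genes kept by filterByExpr, which held 99.9% of the counts, with TMM scaling (factors 0.996 to 1.00), group as the only term, a two-sided quasi-likelihood test and Benjamini-Hochberg adjustment. CPM use the TMM-scaled totals, except that marker sums use plain totals. The SE is the log2 fold change divided by the square root of the F statistic, and the 95% interval uses the t distribution that gives the test's p. Ratios were computed from counts within a library and tested by exact permutation (scipy 1.17.1), where 3 against 3 cannot give a p under 0.1. DESeq2 1.42.0 was run on the same 19227 genes and gave an adjusted p to 12144 of them, and limma 3.58.1 gave limma-voom. The 5 ratios to interneuron genes were added after the data were seen.

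The members, lists and tests were chosen with earlier results of these data known. Named were all members, the 2 genes of smallest p of each pathway list, any list gene past the threshold, and the 3 genes nearest in pattern to Crh, Fkbp5 and Nr3c1. Other genes were named after their values were seen. Alternatives covered size factors, filters, left-out libraries, replicate number as a block, DESeq2 and limma-voom.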

Additional observations from a re-analysis of the deposited data

How the results depend on the processing

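Over 13 alternatives, 0 of the 10 members passed the adjusted threshold in any, and the lowest adjusted p was 0.207. Of 129 log2 fold changes of members under these alternatives, 126 kept their sign and 3 turned: Nr3c2 without stress 2 (0.038) or non-stress 3 (0.020), and Fkbp4 without non-stress 2 (0.010). Their ranges with a library left out were -0.14 to 0.04 and -0.054 to 0.010. Crhr2 could not be fitted with the filter of 50 counts in 3 libraries. The count of genes past the threshold was 1 with all libraries, 1 to 756 with a library left out (756 without non-stress 1, and 2 without non-stress 2 or stress 1), 127 with DESeq2, 2 with limma-voom and 2 with the replicate block. The cause was not tested. The ratio of Nr3c2 to Nr3c1 lay between -0.10 and 0.10 (log2 difference) with a library left out. The other 3 ratios between members kept their sign but moved in size. Crh to Crhbp was 0.08 to 0.20 (lowest without non-stress 1). Crhr1 to Crhr2 was 0.36 to 0.95 (lowest without stress 3, highest without stress 1). Fkbp5 to Fkbp4 was -0.15 to -0.04 (nearest 0 without non-stress 2). Leaving out a library gave the ratio of Crh to all interneuron markers a log2 difference of 0.11 to 0.23, that of Crhbp 0.02 to 0.08, and that of Crhbp to Sst -0.25 to -0.08.

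Deviations of same-numbered libraries from their group means correlated at 0.016, -0.030 and 0.021, so the numbers were not taken to pair samples. With the replicate block, 0 members passed and Crhbp had an unadjusted p of 0.0673. Counts of 16 to 34 limit Crhr2. The median of the SGK family and its partners changed sign with 3 different libraries left out. The labels name no batch.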
